A study of Mus musculus with 6 samples.

Results

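Integrins are adhesion receptors made of 1 alpha and 1 beta chain, and 10 of their chain genes were followed here: the 6 alpha chains *Itgae*, *Itga1*, *Itga4*, *Itgal*, *Itga6*, and *Itgav*, and the 4 beta chains *Itgb7*, *Itgb1*, *Itgb2*, and *Itgb3*. They were chosen by name, as 10 of the 27 mouse integrin chain genes found among the 57126 genes counted. The choice was made with earlier results of these data known. RNA was sequenced from 6 samples of CD8+ T cells taken from lymph nodes and spleens of OT-I mice, whose transgenic T cell receptor recognizes a peptide of ovalbumin. All 6 were cultured to day 6 with nano-aAPCs, iron oxide nanoparticles that carry the peptide on a major histocompatibility complex molecule together with an antibody to CD28. The 3 TEff samples received IL-2, and the 3 TRM-like samples received IL-2, IL-15, and TGF-β, so that the parts played by IL-15 and TGF-β cannot be told apart. All cells carried the same receptor and were grown outside the animal, and the sources used here do not say whether the replicates came from separate mice or cultures, so that p-values measure only the spread between these samples.

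An alpha chain sets much of what an integrin binds, and it reaches the cell surface only when joined to a beta chain, so that alpha chains which use the same beta chain can compete for it. In T cells the β2 integrin αLβ2 (LFA-1) binds ICAM proteins, α4β1 binds VCAM-1 and fibronectin, and α4β7 binds MAdCAM-1 on vessels of the gut. Resident memory T cells of epithelia are known for αEβ7, whose alpha chain is CD103 and whose ligand is E-cadherin, and for α1β1, whose alpha chain is CD49a and which binds collagens. TGF-β is known to raise *Itgae* transcription in CD8+ T cells.

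The deposited counts summed to 18319013 to 21960760 reads per TEff sample and 21178756 to 23622621 per TRM-like sample. The TRM-like replicates were not alike: over the 14822 genes that reached 10 counts in all samples, the median absolute log2 difference of replicate 3 was 0.382 and 0.396 from replicates 1 and 2, which differed from each other by 0.127, and it was 0.217, 0.348, and 0.215 from TEff replicates 1, 2, and 3. TEff replicate 2 was at 0.225 and 0.239 from TEff replicates 1 and 3, which differed by 0.104. By genes with a count, TRM-like replicates 1 and 2 were the ones apart, with 35130 and 35559 such genes against 24229 in TRM-like replicate 3 and 24235 to 24908 in the TEff samples. Replicates 1 and 2 also differed from replicate 3 for *Itgae*, *Itga1*, *Itga6*, and *Itgb7*, and the part of library quality in this was not tested. All 6 markers of CD8 T cells were detected in every sample, with a summed level of 1919 to 2063 CPM, counts per 1000000 reads of scaled library size, in TEff and 2429 to 3323 CPM in TRM-like samples. Of the 6, 1 rose (*Cd8a*, log2 fold change 1.14, adjusted p = 0.00219) and 0 fell by edgeR, with 1 higher and 1 lower by DESeq2 and by limma-voom. *Cd2* was lower in every TRM-like sample than in any TEff sample (log2 fold change -0.64, adjusted p = 0.0504, edgeR). Of 37 markers of other cell types, 19 were tested, 0 rose, and 2 fell (*Zbtb7b* and *Klri2*) by edgeR, with the same counts by DESeq2 and limma-voom and with 2 higher and 5 lower at an unadjusted p below 0.05, and their summed level was 150 to 180 CPM in TEff and 74.1 to 120 CPM in TRM-like samples. Of all genes tested, 1.52% rose and 1.48% fell by edgeR. By adjusted p and fold limit, edgeR called 786 of the 26154 genes tested, DESeq2 1264, and limma-voom 737. The share of all genes at an unadjusted p below 0.05 is not given. Counts at that level, here and below, therefore have no background to be read against. The platelet markers, listed because platelets carry β3 integrin, had at most 4 counts in any sample, with *Gp1bb* at 0 throughout.

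In the TRM-like samples *Itgae* rose 23.8-fold, whereas *Itga4*, *Itgb1*, and *Itgb3* fell 4.77-fold, 4.03-fold, and 4.53-fold. A gene was said to change when its Benjamini-Hochberg adjusted p over the 26154 genes tested was below 0.05 and its absolute log2 fold change was above 0.58 (edgeR quasi-likelihood test). All 10 chains were tested, and 4 changed, where 3.01% of all genes tested did. In the higher direction it was 1 chain, against 1.52% of all genes, and in the lower direction 3 chains, against 1.48%. The TRM-like samples lay wholly above the TEff samples for 2 chains, against 10.6% of all genes tested, and wholly below for 5, against 9.71%, so that 7 of 10 chains had groups that did not overlap, against 20.3%. The median log2 fold change was -0.35 over the 10 chains and 0.02 over all genes tested. Because the chains were chosen with earlier results of these data known, these contrasts with all genes are descriptions and not tests.

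**Figure D1:**
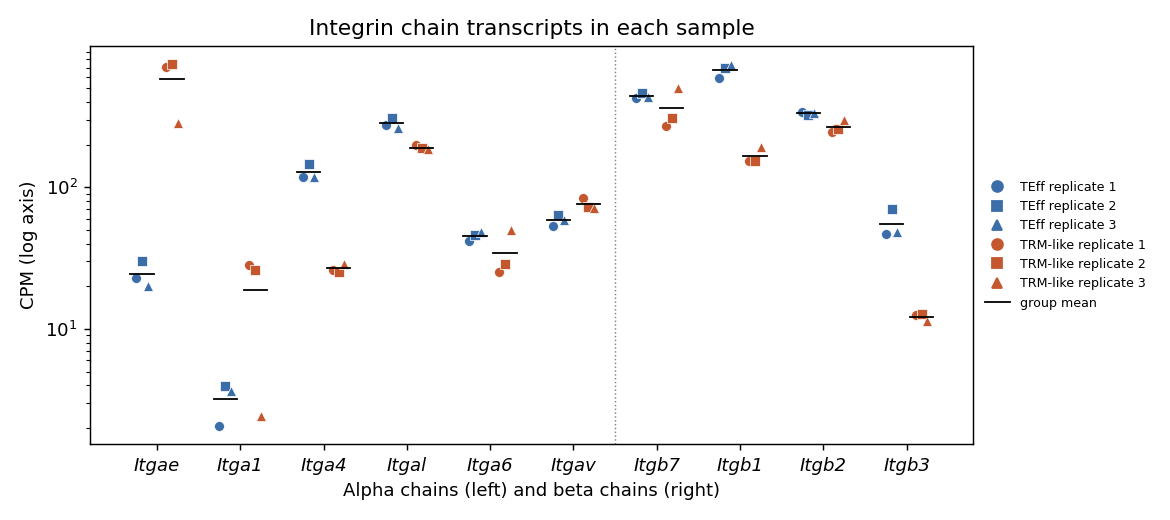
Level of each of the 10 integrin chains in every sample, in CPM on a log axis, for 3 TEff and 3 TRM-like samples; points are samples and lines are group means. *Itgae* lies far above, and *Itga4*, *Itgb1*, and *Itgb3* far below, the TEff range in all 3 TRM-like samples, while TRM-like replicate 3 lies in or beyond the TEff range for *Itga1*, *Itga6*, and *Itgb7*.

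The promoters of the 4 chains that changed are shown because TGF-β was part of the TRM-like medium: TGF-β acts through SMAD proteins, which are known to bind CAGAC, and RUNX factors, whose core site is TGTGGT, are known to act at *Itgae*. Each sequence is the 250 bases before the annotated start of the canonical transcript in GENCODE, read from GRCm39 5′ to 3′ on the gene's plus strand, and none overlaps an annotated exon. Capitals mark a match to CAGAC or TGTGGT on either strand (GTCTG or ACCACA when read from the other strand). The windows are chr11:72981159-72981408 for *Itgae*, chr2:79085410-79085659 for *Itga4*, chr8:129411626-129411875 for *Itgb1*, and chr11:104498576-104498825 for *Itgb3*.
Itgae: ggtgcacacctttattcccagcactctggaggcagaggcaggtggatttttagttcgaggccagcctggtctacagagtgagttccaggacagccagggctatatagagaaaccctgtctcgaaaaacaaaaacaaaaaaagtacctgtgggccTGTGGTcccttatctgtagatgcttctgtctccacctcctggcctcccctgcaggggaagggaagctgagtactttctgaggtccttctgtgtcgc
Itga4: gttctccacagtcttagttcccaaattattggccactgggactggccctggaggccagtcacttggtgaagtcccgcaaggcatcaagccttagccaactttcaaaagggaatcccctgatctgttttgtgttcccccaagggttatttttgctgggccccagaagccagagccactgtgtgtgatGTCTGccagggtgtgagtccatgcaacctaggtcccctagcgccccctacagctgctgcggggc
Itgb1: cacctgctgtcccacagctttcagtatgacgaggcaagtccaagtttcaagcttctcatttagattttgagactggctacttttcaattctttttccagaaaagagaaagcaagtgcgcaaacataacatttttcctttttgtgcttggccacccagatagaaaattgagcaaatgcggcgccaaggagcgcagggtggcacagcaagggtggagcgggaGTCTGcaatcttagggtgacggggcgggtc
Itgb3: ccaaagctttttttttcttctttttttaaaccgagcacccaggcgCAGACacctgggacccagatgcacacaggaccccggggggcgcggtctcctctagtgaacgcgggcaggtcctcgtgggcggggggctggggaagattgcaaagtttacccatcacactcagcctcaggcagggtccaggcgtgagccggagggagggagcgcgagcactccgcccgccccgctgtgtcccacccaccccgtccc

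The *Itgae* window held 1 match to TGTGGT, 96 bases before the start, and none to CAGAC. *Itga4*, *Itgb1*, and *Itgb3* held 1 match to CAGAC each, 64, 30, and 205 bases before the start, and none to TGTGGT. Of 21757 promoters of this length, 41.4% held CAGAC and 13.0% held TGTGGT, and of the 10 integrin promoters 6 and 1 did. The shorter AGAC, which SMAD proteins can also bind, was not searched. A match in this window says only that the letters are there.

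*Itgae* encodes αE, the CD103 chain that pairs only with β7. The gene (ENSMUSG00000005947) spans 72981409 to 73039917 of chromosome 11 on GRCm39. Its level was 22.9, 30.0, and 20.1 CPM in TEff replicates 1 to 3 and 707, 742, and 284 CPM in TRM-like replicates 1 to 3. Every TRM-like sample lay above every TEff sample, and TRM-like replicate 3, the lowest of its group, was still far above the highest TEff sample. The log2 fold change was 4.57 ± 0.38 (SE, n = 3 per group; adjusted p = 0.000447, edgeR), and it was 4.35 to 4.89 when each sample was left out in turn. *Haspin*, a kinase gene inside *Itgae* on the opposite strand that shares no exon bases with it, was at 42.4, 32.4, and 39.0 CPM in TEff and 74.1, 69.4, and 55.9 CPM in TRM-like samples, a log2 fold change of 0.81 (adjusted p = 0.0292, edgeR).

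The beta partner of αE did not pass the test. *Itgb7* (ENSMUSG00000001281, chromosome 15, 102124429 to 102140379) encodes β7, which pairs with αE or α4. Its level was 427, 461, and 431 CPM in TEff and 270, 309, and 504 CPM in TRM-like samples. TRM-like replicates 1 and 2 were below all TEff samples and replicate 3 was above them, so that the groups overlapped. The log2 fold change was -0.28 ± 0.22 (SE, n = 3 per group; adjusted p = 0.627, edgeR). Without TRM-like replicate 3 it was -0.61 and passed the threshold (adjusted p = 0.00143), and over the 16 alternatives tried the adjusted p ranged from 0.00143 to 0.951.

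*Itga4* encodes α4, the homing chain that pairs with β1 or β7. The gene (ENSMUSG00000027009) spans 79085660 to 79163467 of chromosome 2. It was at 118, 145, and 119 CPM in TEff and 26.2, 25.1, and 28.9 CPM in TRM-like samples. The TRM-like samples lay close together and far below every TEff sample, with TRM-like replicate 3 beside replicates 1 and 2. The mean was 127 ± 15.5 CPM in TEff and 26.7 ± 1.93 CPM in TRM-like samples (SD, n = 3 each), which the fit put at 4.77-fold lower. The log2 fold change was -2.25 ± 0.14 (SE; adjusted p = 0.000151, edgeR) and -2.32 to -2.15 with each sample left out. *Cerkl*, on the opposite strand, shares 3481 exon bases with *Itga4* and was at 1.57 to 3.15 CPM. Bulk RNA cannot separate fewer cells that express a chain from less RNA per cell.

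Levels of different genes were compared as CPM per kilobase of gene length. On this scale *Itgae* stood to *Itga4*, the other alpha chain of β7, as 0.493, 0.524, and 0.428 to 1 in TEff and as 68.7, 75.0, and 25.0 to 1 in TRM-like samples. In other words, *Itgae* made up 33.0%, 34.4%, and 30.0% of the summed level of the 2 alpha chains in TEff and 98.6%, 98.7%, and 96.2% in TRM-like samples. The order of the 2 chains was thus opposite in the groups, in all 6 samples. The mean log2 ratio was -1.06 ± 0.15 in TEff and 5.66 ± 0.88 in TRM-like samples (SD, n = 3 each), a difference of 6.72 with p = 0.1 by a two-sided exact permutation test, the smallest p that 3 against 3 samples allow. Since *Itgae* was higher and *Itga4* lower in every TRM-like sample than in any TEff sample, that p was fixed beforehand. It adds no support beyond the results of the 2 chains themselves.

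*Itgae* was scarce relative to β7 in TEff and abundant relative to it in the TRM-like samples. Per kilobase, the ratio of *Itgae* to *Itgb7* was 0.0374, 0.0453, and 0.0325 in TEff and 1.83, 1.67, and 0.393 in TRM-like samples. *Itgae* exceeded *Itgb7* in TRM-like replicates 1 and 2 but not in replicate 3, where *Itgae* was lowest and *Itgb7* highest of the group. The mean log2 ratio moved from -4.72 ± 0.24 to 0.09 ± 1.25 (SD, n = 3 each), a difference of 4.81 (two-sided exact permutation p = 0.1, again the smallest possible). The ratio of *Itga4* to *Itgb7* went the other way, from 0.0759, 0.0865, and 0.0759 in TEff to 0.0267, 0.0223, and 0.0157 in TRM-like samples, with no overlap.

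**Figure D2:**
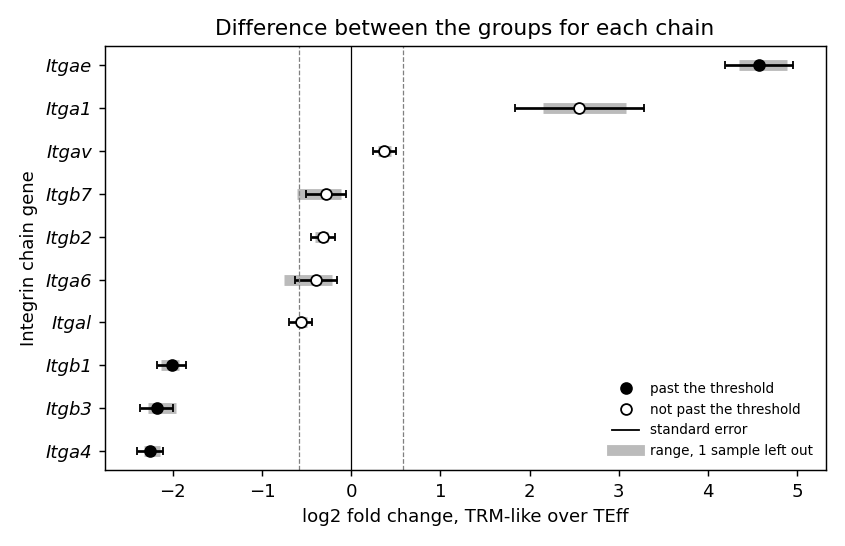
Log2 fold change of the 10 chains, TRM-like minus TEff, from edgeR, with lines of 1 SE, grey bars for the range over the fits that each left out 1 of the 6 samples, and dashed lines at 0.58 in either direction. *Itgae* stands at 4.57, *Itga4*, *Itgb3*, and *Itgb1* near -2, and the widest range among the other chains is that of *Itga1*, from 2.15 to 3.08.

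The β1 chain, with β7 the most abundant chain of TEff cells per gene length, fell in the TRM-like cells. *Itgb1* (ENSMUSG00000025809, chromosome 8, 129411876 to 129460618) encodes β1, the shared chain of the collagen, laminin, and fibronectin receptors. Its level was 591, 694, and 734 CPM in TEff and 154, 154, and 193 CPM in TRM-like samples. All TRM-like samples lay far below all TEff samples. The fit put it 4.03-fold lower, at a log2 fold change of -2.01 ± 0.16 (SE, n = 3 per group; adjusted p = 0.000374, edgeR), and leaving out each sample gave -2.14 to -1.93.

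*Itga1* encodes α1, the CD49a chain, which pairs only with β1. The gene (ENSMUSG00000042284) spans 115089632 to 115238677 of chromosome 13. It was at 2.06, 3.95, and 3.65 CPM in TEff and 28.2, 26.0, and 2.44 CPM in TRM-like samples. TRM-like replicates 1 and 2 were far above TEff, and replicate 3 lay within the TEff range. The log2 fold change of 2.56 ± 0.72 (SE, n = 3 per group) missed the threshold (adjusted p = 0.120, edgeR). Without TRM-like replicate 3 it was 3.08 and passed it (adjusted p = 2.40e-07), and over the 16 alternatives the adjusted p ranged from 3.14e-28 to 0.407. The lowest value came from the fit without a filter. In that fit and in the one with the replicate block, edgeR gave the gene's own spread no weight (infinite prior degrees of freedom). With the block and at least 10 counts in every sample, *Itga1* missed the threshold (adjusted p = 0.0794, edgeR). *Mocs2*, on the opposite strand, shares 2180 exon bases with *Itga1* and stayed at 17.3 to 19.1 CPM in the 6 samples.

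*Itga6* encodes α6, which with β1 binds laminins. The gene (ENSMUSG00000027111, chromosome 2, 71575960 to 71689757) was at 41.9, 46.0, and 48.4 CPM in TEff and 25.3, 28.9, and 49.6 CPM in TRM-like samples. As for *Itgb7*, TRM-like replicates 1 and 2 were below every TEff sample and replicate 3 was above them. The log2 fold change was -0.39 ± 0.24 (SE, n = 3 per group; adjusted p = 0.515, edgeR). Without TRM-like replicate 3 it was -0.75 and passed the threshold (adjusted p = 0.000578, with a range of 0.000578 to 0.872 over the 16 alternatives).

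*Itgav* encodes αV, which pairs with β1, β3, β5, β6, and β8 and is known for binding vitronectin and latent TGF-β. The gene (ENSMUSG00000027087, chromosome 2, 83554403 to 83637260) was at 52.9, 64.0, and 58.7 CPM in TEff and 83.6, 72.2, and 71.5 CPM in TRM-like samples. The groups did not overlap, but the gap was small, and the log2 fold change of 0.37 ± 0.13 (SE, n = 3 per group) missed the threshold (adjusted p = 0.228, edgeR). It was, with *Itgae*, 1 of the 2 chains for which all TRM-like samples were above all TEff samples.

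The alpha chains that can join β1 were more abundant relative to it in the TRM-like samples, although their summed level was lower. Summed per kilobase over the 12 alpha chains that pair with β1, they came to 0.218, 0.214, and 0.192 of the *Itgb1* level in TEff and 0.628, 0.601, and 0.562 in TRM-like samples, with no overlap. The sum itself was 33.7, 38.9, and 36.9 CPM per kilobase in TEff and 25.4, 24.3, and 28.4 in TRM-like samples. *Itgb1* was at 155, 182, and 192 CPM per kilobase in TEff and 40.4, 40.4, and 50.5 in TRM-like samples. Which alpha chain led also differed. *Itga4* was the largest in every TEff sample, with 33.0% to 38.3% of the sum, *Itgav* was the largest in TRM-like replicates 1 and 2, with 46.7% and 42.2%, and *Itga6* in replicate 3, with 39.0%.

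The chains of LFA-1, αLβ2, which holds T cells to other cells through ICAM proteins, were lower in every TRM-like sample but missed the threshold. *Itgal* (ENSMUSG00000030830, chromosome 7, 126895432 to 126934320), the αL gene, was at 277, 309, and 262 CPM in TEff and 199, 188, and 185 CPM in TRM-like samples. Its log2 fold change was -0.57 ± 0.13 (SE, n = 3 per group; adjusted p = 0.0544, edgeR), just short of both limits, and between -0.61 and -0.50 with each sample left out. *Itgb2* (ENSMUSG00000000290, chromosome 10, 77366086 to 77401542), the β2 gene, was at 340, 324, and 336 CPM in TEff and 247, 259, and 300 CPM in TRM-like samples. Its log2 fold change was -0.31 ± 0.13 (SE, n = 3 per group; adjusted p = 0.317, edgeR). *Itgal* supplied 95.3% to 98.8% of the summed level per kilobase of the 4 alpha chains that use β2, in all 6 samples.

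*Itgb3* encodes β3, which joins αV in the vitronectin receptor and αIIb on platelets. The gene (ENSMUSG00000020689) spans 104498826 to 104561302 of chromosome 11. It was at 46.9, 70.7, and 48.6 CPM in TEff and 12.5, 12.8, and 11.3 CPM in TRM-like samples. The TRM-like samples were close together and all below TEff. The log2 fold change was -2.18 ± 0.18 (SE, n = 3 per group; adjusted p = 0.000498, edgeR), or 4.53-fold lower, and -2.28 to -1.97 with each sample left out. Per kilobase, *Itgav* stood to *Itgb3* as 0.924, 0.742, and 0.991 to 1 in TEff. In TRM-like samples the ratio was 5.48, 4.61, and 5.19 to 1. The 2 chains were thus nearly level in TEff replicates 1 and 3, with β3 the larger in replicate 2. In every TRM-like sample αV was clearly the larger. *Itgav* was 96.6% to 99.1% of the 2 alpha chains that use β3, the other being the platelet chain *Itga2b*.

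**Figure D3:**
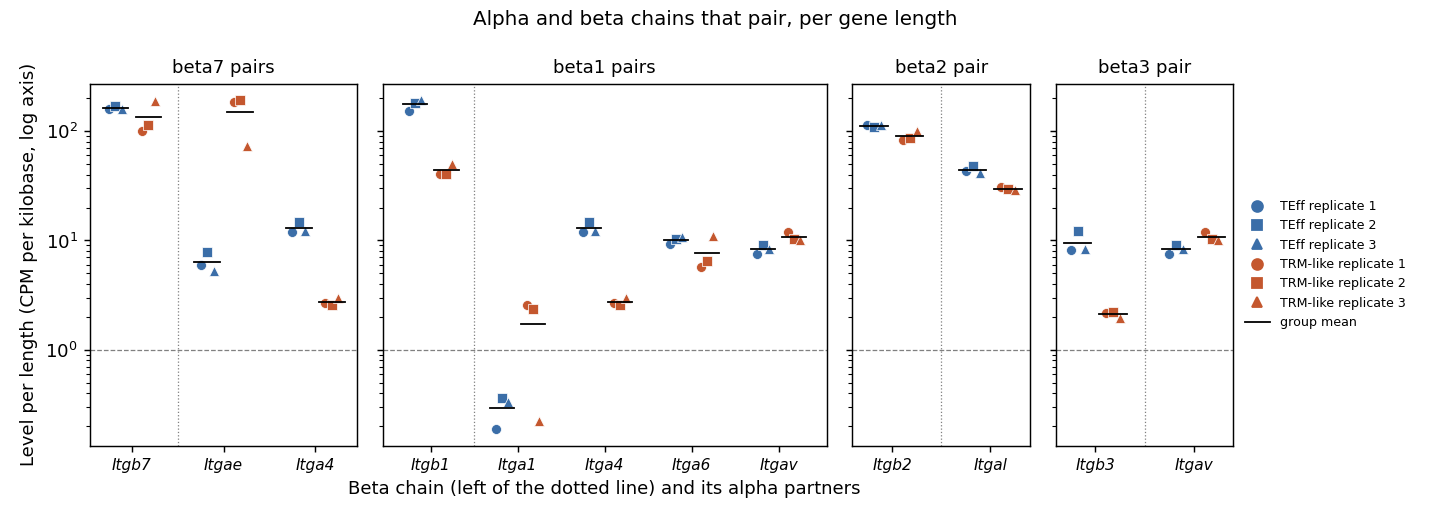
Levels per kilobase (CPM per kilobase of gene length, log axis) of the alpha and the beta chain of integrin pairs, in 3 TEff and 3 TRM-like samples, with 1 point per chain and sample, lines for group means, and a dashed line at 1. The αE chain lies far below β7 in every TEff sample, above it in TRM-like replicates 1 and 2, and below it in replicate 3, while α4 lies below both its beta chains in every sample.

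A pair was counted as expressed in a group when both chains were at 1 or more CPM per kilobase in every sample of the group. Of 24 known mouse pairs, 7 were expressed in TEff and the same 7 in TRM-like samples: αEβ7, α4β7, α4β1, α6β1, αVβ1, αLβ2, and αVβ3. The pairs expressed were therefore alike at this level, and what differed was how much of each chain there was. At 5 CPM per kilobase the count stayed at 7 in TEff and was 4 in TRM-like samples, where *Itga4* and *Itgb3* were under that level. α1β1 was counted in neither group, because *Itga1* was at 0.188 to 0.360 CPM per kilobase in TEff and at 2.57, 2.37, and 0.223 in TRM-like samples. Without TRM-like replicate 3, α1β1 was the eighth pair expressed in the TRM-like samples. RNA levels do not show how much of a pair is at the cell surface.

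The order of the chains by level per kilobase changed most for *Itgae*. In TEff the means ran from *Itgb1* at 176, *Itgb7* at 164, *Itgb2* at 112, and *Itgal* at 44.3 to *Itga4* at 13.0, *Itga6* at 10.1, *Itgb3* at 9.58, *Itgav* at 8.29, *Itgae* at 6.32, and *Itga1* at 0.293. Neighbours whose samples overlapped in TEff were *Itgb1* and *Itgb7*, *Itga6* and *Itgb3*, *Itgb3* and *Itgav*, and *Itgav* and *Itgae*. In the TRM-like samples *Itgae* came first at 150, before *Itgb7* at 135, *Itgb2* at 90.3, *Itgb1* at 43.8, *Itgal* at 29.9, *Itgav* at 10.7, *Itga6* at 7.73, *Itga4* at 2.74, *Itgb3* at 2.11, and *Itga1* at 1.72. Overlapping neighbours there were *Itgae* and *Itgb7*, *Itgb7* and *Itgb2*, *Itgav* and *Itga6*, and *Itgb3* and *Itga1*. The first place of *Itgae* rested on TRM-like replicates 1 and 2, at 184 and 193, since in replicate 3 it was at 73.9, below *Itgb7* at 188 and *Itgb2* at 101.

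The other 17 integrin chains were low in both groups. None reached 1 CPM per kilobase in every sample of a group, and the highest value in any sample was 2.16, for *Itga7*. Of the 17, 15 were tested and 1 changed, where 3.01% of all genes tested did. *Itgb5*, another beta partner of αV, was at 3.25, 4.10, and 3.76 CPM in TEff and 0.785, 1.09, and 1.89 CPM in TRM-like samples, with no overlap and a log2 fold change of -1.56 ± 0.33 (SE, n = 3 per group; adjusted p = 0.0391, edgeR). It missed the threshold in the 5 fits that left out a sample other than TRM-like replicate 3, with log2 fold changes of -1.64 to -1.31 and adjusted p of 0.106 to 0.177.

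Integrins are opened from inside the cell when talin and kindlin bind the tail of the beta chain, after the small GTPase RAP1 is activated. Of 18 genes on the list of activators, 16 were tested and 0 changed by edgeR, DESeq2, or limma-voom, with 2 higher and 2 lower at an unadjusted p below 0.05 in edgeR. Since 3.01% of all genes tested changed by edgeR, a count of 0 among 16 is near the background. The TRM-like samples lay wholly above the TEff samples for 4 of the 16 and wholly below for 5. Of all genes tested, 10.6% and 9.71% did so. *Tln1*, talin, was at 560, 579, and 526 CPM in TEff and 672, 661, and 656 CPM in TRM-like samples, a log2 fold change of 0.26 ± 0.13 (SE, n = 3 per group; adjusted p = 0.414, edgeR). *Fermt3*, the kindlin of blood cells, was at 277, 244, and 259 CPM in TEff and 285, 303, and 242 CPM in TRM-like samples, and its groups overlapped (log2 fold change 0.09 ± 0.14, adjusted p = 0.829).

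Among 7 listed inhibitors of integrin activation, all tested, 1 rose and 0 fell by edgeR, with 1 and 0 by limma-voom, 1 and 1 by DESeq2, and 2 and 1 at an unadjusted p below 0.05 in edgeR. *Dok1*, an adaptor that competes with talin for the beta chain tail, was at 26.6, 25.9, and 27.5 CPM in TEff and 57.4, 64.0, and 37.7 CPM in TRM-like samples, with no overlap. Its log2 fold change was 0.99 ± 0.19 (SE, n = 3 per group; adjusted p = 0.0274, edgeR). Of 11 genes that link integrins to actin, all tested, 1 changed. This count and that of the inhibitors by edgeR stand against 3.01% of all genes tested. *Vcl*, vinculin, was at 8.78, 8.91, and 8.84 CPM in TEff and 2.49, 3.06, and 5.40 CPM in TRM-like samples, a log2 fold change of -1.28 ± 0.28 (SE, n = 3 per group; adjusted p = 0.0438, edgeR).

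Of 2 listed membrane partners of integrins, *Cd47*, the integrin-associated protein that is also a signal against phagocytosis, fell. It was at 283, 310, and 296 CPM in TEff and 182, 184, and 178 CPM in TRM-like samples, a log2 fold change of -0.71 ± 0.12 (SE, n = 3 per group; adjusted p = 0.0165, edgeR). *Dok1*, *Vcl*, and *Cd47* passed the threshold without TRM-like replicate 3 and missed it when any other sample was left out, with adjusted p of 0.0901 to 0.156 for *Dok1*, 0.115 to 0.189 for *Vcl*, and 0.0665 to 0.122 for *Cd47*.

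Of 19 integrin ligands, 13 were tested, 1 rose, and 1 fell, against 1.52% and 1.48% of all genes tested. *Cdh1*, E-cadherin, the ligand of αEβ7, was at 0.457, 0.709, and 0.608 CPM in TEff and 72.9, 63.8, and 66.2 CPM in TRM-like samples. Its transcript and that of the αE chain, though not that of β7, were thus higher in every TRM-like sample than in any TEff sample. For *Cdh1*, TRM-like replicate 3 stood beside the other replicates, unlike for *Itgae*. *Lama5*, a laminin chain of basement membranes and so a ligand of α6β1, was at 8.32, 8.30, and 8.29 CPM in TEff and 3.40, 2.23, and 3.04 CPM in TRM-like samples. Its log2 fold change was -1.52 ± 0.21 (SE, n = 3 per group; adjusted p = 0.00487, edgeR) and passed the threshold with each sample left out. Over these 5 lists together, 49 of 57 genes were tested, 2 rose, 3 fell, and the median log2 fold change was 0.10. Over all genes tested, 1.52% rose, 1.48% fell, and the median was 0.02.

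**Figure D4:**
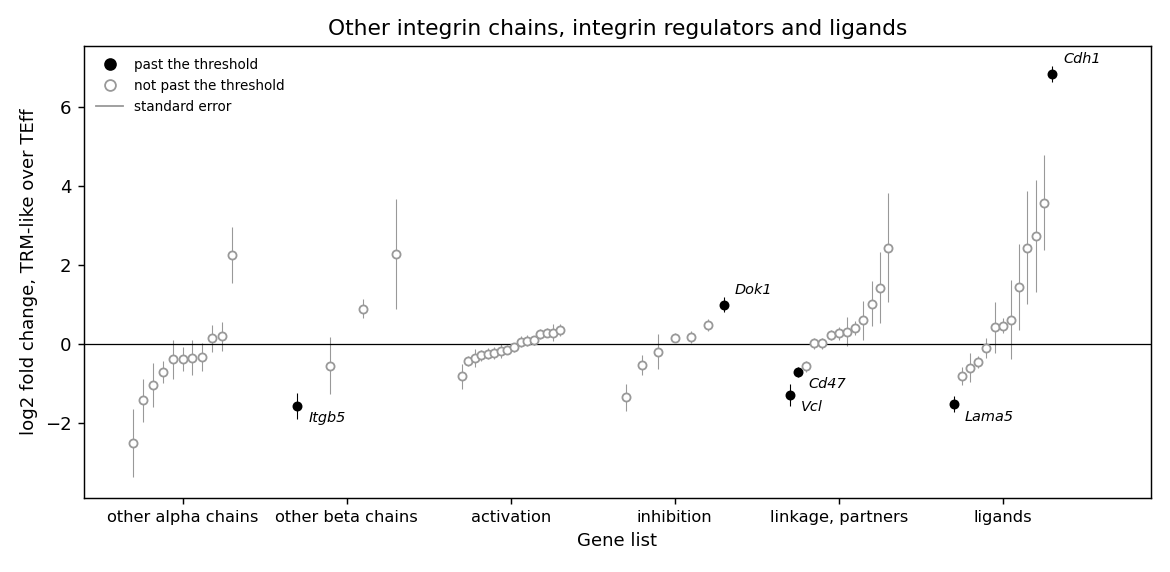
Log2 fold change, TRM-like minus TEff, of the tested genes on the lists of activators, inhibitors, actin linkage, membrane partners, and ligands of integrins and of the other integrin chains, from edgeR, with 1 point per gene, lines of 1 SE, and the genes that passed the threshold named. *Cdh1* stands at 6.83, and the activator list holds no named gene.

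The genes whose profile was nearest to that of a chain were found by the distance between mean-centred log2 CPM over the 6 samples, among the 10862 protein-coding genes that reached 10 counts in all samples. *Vipr2*, a receptor for vasoactive intestinal peptide, was nearest to *Itgae*, at a distance of 0.308, followed by *Emid1* at 0.615 and *Iigp1* at 0.793. *Vipr2* was at 0.553 to 0.861 CPM in TEff and at 21.6, 22.5, and 6.69 CPM in TRM-like samples, with replicate 3 the lowest of its group as for *Itgae*. *Xdh*, xanthine dehydrogenase, was nearest to *Itga4*, at 0.184, before *Il18r1* at 0.293 and *Adcy6* at 0.307. *Adcy6*, an adenylyl cyclase, and *Il18r1*, a chain of the IL-18 receptor, were also the nearest genes to *Itgb3*, at 0.187 and 0.241, before *Igf1r* at 0.369.

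*Ly6c2*, *Tanc2*, and *Sgk1* were nearest to *Itgb1*, at 0.299, 0.378, and 0.408. *Ly6c2*, a surface antigen of mouse memory and effector CD8+ T cells, was at 167, 242, and 209 CPM in TEff and 42.2, 47.6, and 62.6 CPM in TRM-like samples. *Itga1* had *Tyrobp*, *Il12a*, and *Klhl30* as its nearest genes, at 0.618, 0.673, and 0.680. *Tyrobp*, a signaling adaptor, was at 0.774 to 1.11 CPM in TEff and 7.63, 8.34, and 0.692 CPM in TRM-like samples, so that TRM-like replicate 3 was below the TEff range for it.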

How the data were processed

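RNA was sequenced from 3 TEff and 3 TRM-like samples, grouped by the sample labels. The authors trimmed reads with cutadapt 4.8 and mapped and counted them with Rsubread on GENCODE genes of GRCm39. The deposited values are raw, unscaled counts, beside the length of each gene in bases. The strand setting of the counting is not given in the sources used here. Of 57126 genes, 56620 were matched by identifier to a later GENCODE annotation for symbols and positions.

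Counts were tested with edgeR 4.0.16 in R 4.3.3 (TMM scaling, glmQLFit, glmQLFTest, Benjamini-Hochberg adjustment) on the 26154 genes counted in 3 samples or more (minimum 1 count). The threshold was an adjusted p under 0.05 with a log2 fold change beyond 0.58 in either direction. CPM used TMM effective library sizes. The test was checked on simulated counts. Ratios were tested with scipy 1.17.1. The alternatives were DESeq2 1.42.0, limma-voom (limma 3.58.1), DESeq2's size factors, library totals, a minimum of 10 counts in all samples, filterByExpr, fitting without a filter, the adjusted p without a fold limit, the replicate block with and without the filter of 10 counts, and each sample left out. No batch was removed, since the batch that the authors corrected for is not given in the sources used here.

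The members and gene lists were chosen with earlier results of these data known. The genes named are the 10 members, the other chains and listed pathway genes that passed the threshold, and the 3 genes with the profile nearest to each member with an adjusted p below 0.05 and to *Itga1*. *Haspin*, *Mocs2*, *Cerkl*, *Tln1*, *Fermt3*, *Itga7*, and the markers named fall outside this rule, chosen with their values in view. The authors' DESeq2 1.40.2 results were not used.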

Additional observations from a re-analysis of the deposited data

How the results depend on the processing

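Over the 10 chains and 16 alternatives, 155 of 160 log2 fold changes kept their direction and their side of the threshold, 5 came to pass it, and 0 reversed. *Itgae*, *Itga4*, *Itgb1*, and *Itgb3* passed it under all 16. The 5 were *Itga1*, *Itga6*, and *Itgb7* without TRM-like replicate 3, and *Itga1* with no filter and with the replicate block. The chains that rose numbered 1, with 2 under no filter and 2 under the replicate block, and 1 to 2 with each sample left out. Those that fell numbered 3, and 3 to 5 with each sample left out. The 786 genes called in all became 1264 with DESeq2, 1868 with no filter, 2034 with the replicate block, and 263 to 3579 with each sample left out, the highest without TRM-like replicate 3. Of the other chains 1 was called, with 2 by DESeq2, 6 with no filter, 6 with the replicate block, 2 with the block and at least 10 counts in every sample, and 0 to 5 with each sample left out. For the pathway lists the 5 calls became 8 with no filter, 10 with the replicate block, 8 with the block and 10 counts, and 2 to 14 with each sample left out. *Vcl* also missed the threshold with library totals alone (adjusted p = 0.0511). The prior degrees of freedom of edgeR, which set the weight of the spread shared by all genes, were 4.97 in the main fit. They were infinite with no filter and with the replicate block, where a gene's own spread thus had no weight. With the block and 10 counts they were 8.30, with 903 genes called. Without TRM-like replicate 3 they were 9.89, and 4.09 to 5.95 with any other sample left out. The cause of the shifts in these counts was not tested. The expressed pairs of TEff were 18 when a chain needed 10 counts in every sample, and 7 to 11 with each sample left out, the highest without TEff replicate 1. For TRM-like samples they were 4 at 5 CPM per kilobase, 17 at 10 counts, and 7 to 8 with each sample left out. The log2 ratio differences were 6.43 to 7.22 for *Itgae* to *Itga4* and 4.41 to 5.52 for *Itgae* to *Itgb7* with each sample left out. Same-numbered samples had correlations of -0.332, 0.345, and 0.416 between their deviations from the group means. TRM-like replicate 1 was nearest to TEff replicate 2, at 0.546. TRM-like replicates 2 and 3 were nearest to the TEff samples of their own number. Deviations within a group of 3 samples depend on each other, so these values do not settle whether the numbers pair the samples. With the replicate block, the ratio differences are 6.72 and 4.81 by construction, as without it, and their exact permutation p was 0.25, the smallest that 3 pairs allow, in place of 0.1. With 3 samples a group, small differences such as those of *Itgal*, *Itgb2*, and *Itgav* did not pass the threshold, which does not show that the groups were alike.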
